A study of Mus musculus with 20 samples.

Results

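The members described here are nuclear genes of the mitochondrial respiratory chain and the ATP synthase. They were taken as every row whose gene symbol begins with Nduf, Cox4 to Cox8, Uqcr or Atp5, or is Sdha, Sdhb, Sdhc, Sdhd, Cycs or Cyc1. Subunits encoded in mitochondrial DNA have other symbols and are not covered. Of 20193 rows in each of the deposited gene tables, 86 met the rule in both. They comprise 40 genes of complex I (7 core subunits, 28 supernumerary subunits and 5 assembly factors), 4 of complex II, 7 of complex III, 1 for cytochrome c, 19 of complex IV and 14 of the ATP synthase. The remaining one, Cox4nb, matched by its name only: it encodes a subunit of a membrane complex of the endoplasmic reticulum. The other 85 members are counted with the chain and the synthase, the 5 assembly factors among them. The measurements come from Affymetrix hybridisations of RNA from mouse C2C12 cells, myoblasts that grow as a line and fuse into contractile myotubes once serum is lowered.

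The scramble set holds 8 arrays of cells transfected at 10 nM and sampled at day 2 of differentiation, with 1 of 3 siRNAs that target Myolinc, a long noncoding RNA (siMyolinc.1, siMyolinc.2 and siMyolinc.3) or with a scramble siRNA (siScr). The time-course set holds 12 arrays: the same 3 siMyolinc groups, and untransfected cells in growth medium (Undiff) and after 1 day (Day_1) and 2 days (Day_2) in differentiation medium. Every group holds a pair of arrays, biological replicates by their labels, and the p-values measure the spread between them. The siMyolinc arrays of the 2 sets are the same hybridisations, and the sets were normalized separately, so levels are compared only within a set. Comparisons of siMyolinc with Day_2 also set transfected against untransfected cells, and the siRNA and the transfection cannot be told apart there. The labels name no batch of cultures or arrays. A batch difference between groups cannot be told apart from the day or the treatment. All cells are of 1 cell line, and Myolinc itself was not analysed here.

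The respiratory chain moves electrons from NADH, through complex I, and from succinate, through complex II, by way of ubiquinone to complex III, then through cytochrome c to oxygen at complex IV. Complexes I, III and IV pump protons across the inner mitochondrial membrane, and the ATP synthase, complex V, uses their return to make ATP. Several subunits of complex IV exist as isoforms made in different tissues: Cox6a2, Cox7a1 and Cox8b are the heart and muscle forms of Cox6a1, Cox7a2 and Cox8a. When myoblasts differentiate, muscle cells are known to enlarge their mitochondrial network.

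The mean level of markers of differentiated muscle rose over the days in untransfected cells, while that of myoblast markers fell at Day_1 and came back. The mean log2 level of 6 myoblast markers was 10.13 to 10.15 in Undiff, 9.41 to 9.45 at Day_1 and 10.27 to 10.28 at Day_2. Of these markers 4 were lower and 1 higher at Day_1 than in Undiff (median -0.40) and 4 higher and 1 lower at Day_2 than at Day_1 (median 0.82). With siMyolinc 3 of the 6 were lower than with siScr (median -0.53), and 5 were lower and 1 higher than at Day_2 (median -1.04). The siMyolinc arrays, at a mean level of 8.90 to 9.51, stood nearer Day_1 than Undiff or Day_2. Group means of Myod1 were 7.71 at Day_1 and 7.24 to 7.54 with siMyolinc, against 9.87 in Undiff and 9.62 at Day_2. Those of Myf5 were 10.76 and 10.62 to 10.86, against 9.76 and 9.72. Cdh15 and Itga7 did not divide this way, at 10.11 and 10.59 in Undiff, 9.99 and 10.27 at Day_1 and 10.07 and 11.38 at Day_2. The part of these markers' shifts, or of a batch, in the values below was not tested. Of 7 markers of differentiated muscle, 6 were higher and 1 lower at Day_1 than in Undiff (median 0.65 log2). At Day_2 6 were higher than in Undiff (median 3.16), and 7 of 7 were lower with siMyolinc than with siScr (median -1.26). Their mean level was 7.79 to 7.82 in Undiff, 8.27 to 8.48 at Day_1 and 10.23 to 10.28 at Day_2. In the siMyolinc.1 and siMyolinc.3 arrays, sampled at day 2, it was 7.69 to 7.75, below Undiff, and in siMyolinc.2 8.42. In bulk samples fewer differentiated cells and less RNA per cell cannot be told apart. The mean log2 level of 5 adipocyte markers lay between 6.25 and 6.55 in the untransfected arrays, that of 4 osteoblast markers between 6.46 and 6.95, that of 4 macrophage markers between 6.39 and 6.67 and that of 3 endothelial markers between 6.45 and 6.76. In mean level these 16 markers ran from percentile 9.61 of all rows of the time-course set, for the adipocyte gene Adipoq, to 58.5, for the macrophage gene Cd68, with Plin1 at 47.3 and the bone gene Alpl at 45.0. Replicate arrays correlated at 0.996 to 0.999 over all rows.

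In the Day_1 arrays most called members were lower, and the day cannot be told apart there from a batch of cultures or arrays. Against Undiff, 49 of 86 members were called at Day_1 by limma, at a Benjamini-Hochberg adjusted p under 0.05 over all rows; 9 were higher and 40 lower, that is 46.5% of the members lower against a background of 21.1% of all rows, with 27% of rows higher and 48.1% called in all. The members' median difference was -0.17 log2, against 0.11 for all rows. At Day_2 the median member stood near Undiff: 29 were called, 16 higher and 13 lower, against a background of 29.9% of rows, with a median of 0.01 (all rows -0.03). Between the days, Day_2 against Day_1, 51 were called, 42 higher and 9 lower, against 53.6% of rows called and 21.1% higher and 32.4% lower. The comparisons of the 2 days with Undiff share the Undiff arrays, and both comparisons of Day_1 share the Day_1 arrays.

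The number of members lower at Day_1 depended on how the arrays were scaled. The Day_1 arrays held a narrower range of values, the SD over rows being 2.07 and 2.03 in Undiff, 1.97 and 1.95 at Day_1 and 2.05 in both Day_2 arrays. Centred array by array on the 75th percentile, the median of all rows at Day_1 against Undiff moved to 0.26, by more than 0.1 log2, and the split of called members became 16 members higher and 20 lower, with 55.5% of all rows higher and 14.8% lower. A further quantile normalization gave 8 higher and 31 lower, with 21.2% of rows higher and 18.6% lower. Lower under all 3 scalings were 20 members: Ndufs1, Ndufa9, Ndufb4, Ndufb6, Ndufb7, Ndufb8, Sdha, Sdhd, Cyc1, Uqcrc1, Cox5b, Cox7a2, Atp5a1, Atp5f1, Atp5g3, Atp5j2, Atp5k, Atp5l, Atp5o and Cox4nb. Higher under all 3 were 6: Uqcrq, Cox4i2, Cox6a2, Cox7a2l, Cox8c and Atp5s. For Day_2 against Day_1 the splits were 22 higher and 15 lower with the centring (14.7% of rows higher and 54.7% lower) and 34 higher and 10 lower with the quantile normalization (18.3% and 21.5% of rows), with 22 members higher under all 3. Without Undiff replicate 1 the members' median at Day_1 against Undiff was -0.14 log2, against 0.08 for all rows. Without Day_1 replicate 2 it was -0.16, against 0.08.

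**Figure D1:**
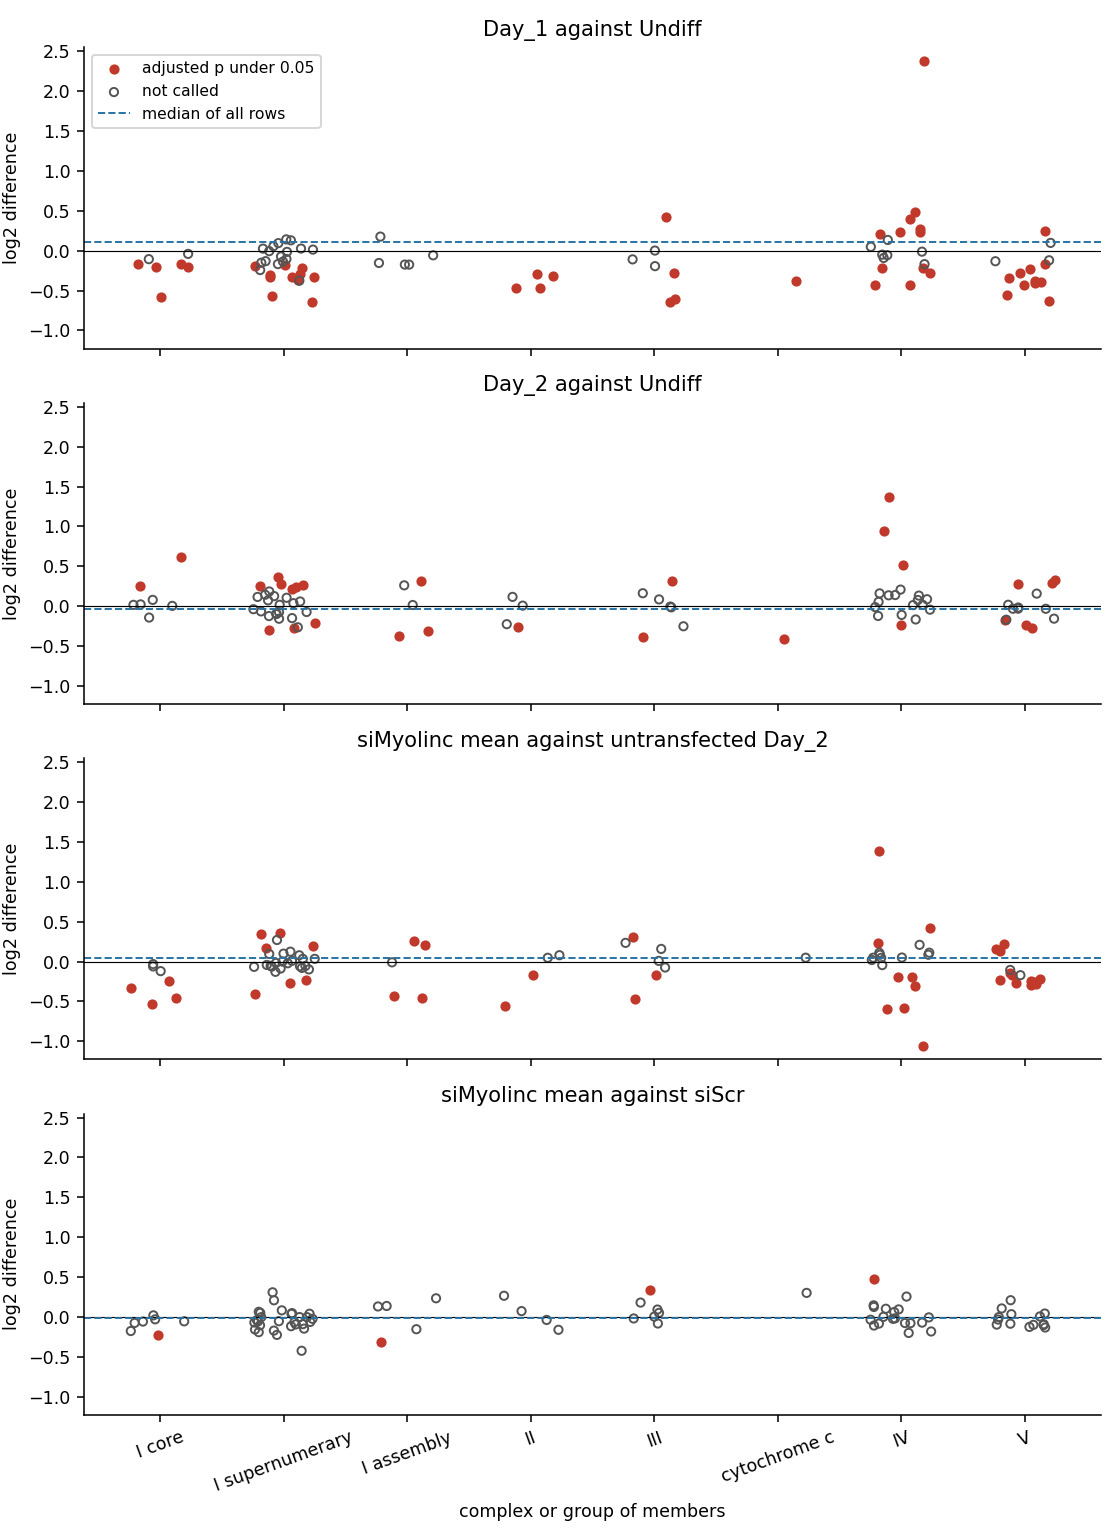
Log2 difference of each member (points) by complex in 4 comparisons, filled where limma called it; the dashed line is the median of all rows. At Day_1 against Undiff 40 members were called lower and 9 higher, with 21.1% of all rows lower and 27% higher. When arrays were centred on the 75th percentile these were 20 and 16, with 14.8% of rows lower and 55.5% higher. With siMyolinc against siScr 4 of 86 were called, against 9.09% of rows.

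**Figure D2:**
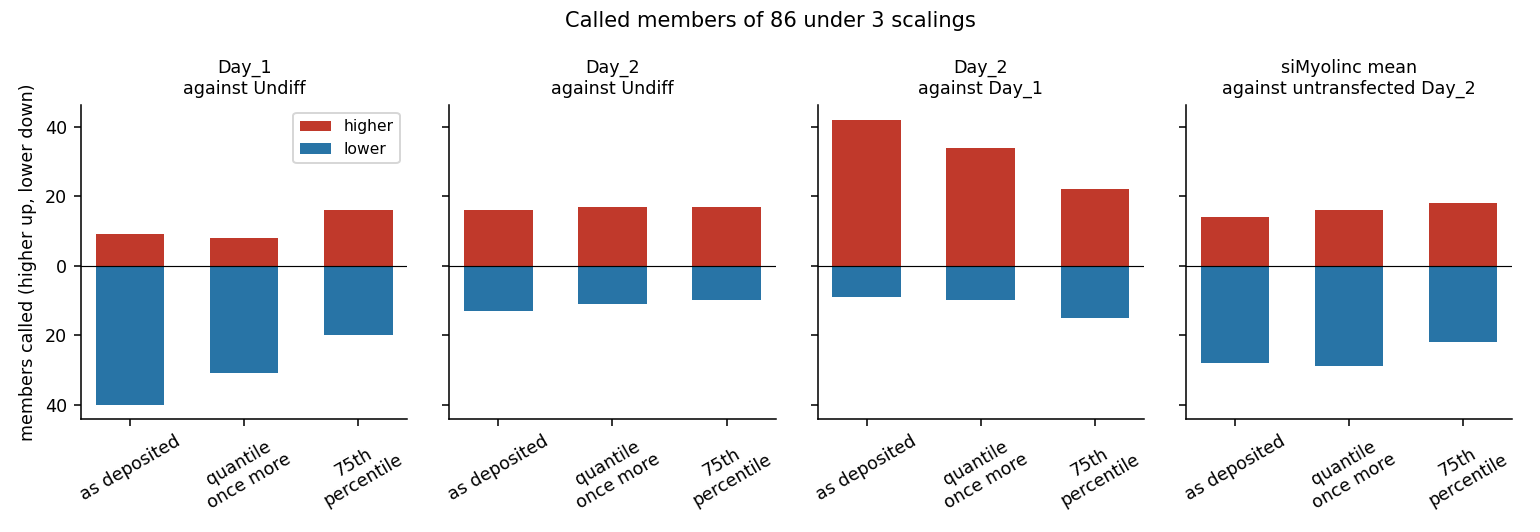
Number of members called higher (upward bars) and lower (downward bars) under 3 scalings of the arrays in 4 comparisons. The Day_1 split runs from 9 higher and 40 lower with the deposited values to 16 higher and 20 lower with the 75th percentile centring. Of all rows 27% were higher and 21.1% lower with the deposited values, and 55.5% and 14.8% with the centring.

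Array signal went with the direction as well. With the rows of the time-course set ranked by signal and split into 4 bands of equal size, in the brightest band, which held 62 of the members, the median difference at Day_1 against Undiff was -0.20 log2 for the members and -0.05 for all rows. There 35 members (of 62) and 37.8% of rows were lower. In the next brightest band the medians were -0.16 for 18 members and -0.04 for all rows. In the dimmer bands, with 5 members and 1 member, all rows had medians of 0.18 and 0.14. Of the 16 measured markers of the other cell types, 6 were higher at Day_1 and 1 was lower. In the dimmer bands 34.3% and 18.7% of rows were higher and 8.04% and 2.08% lower. Of all rows 27% were higher and 21.1% lower. The part of the array signal in the Day_1 result was not tested.

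**Figure D3:**
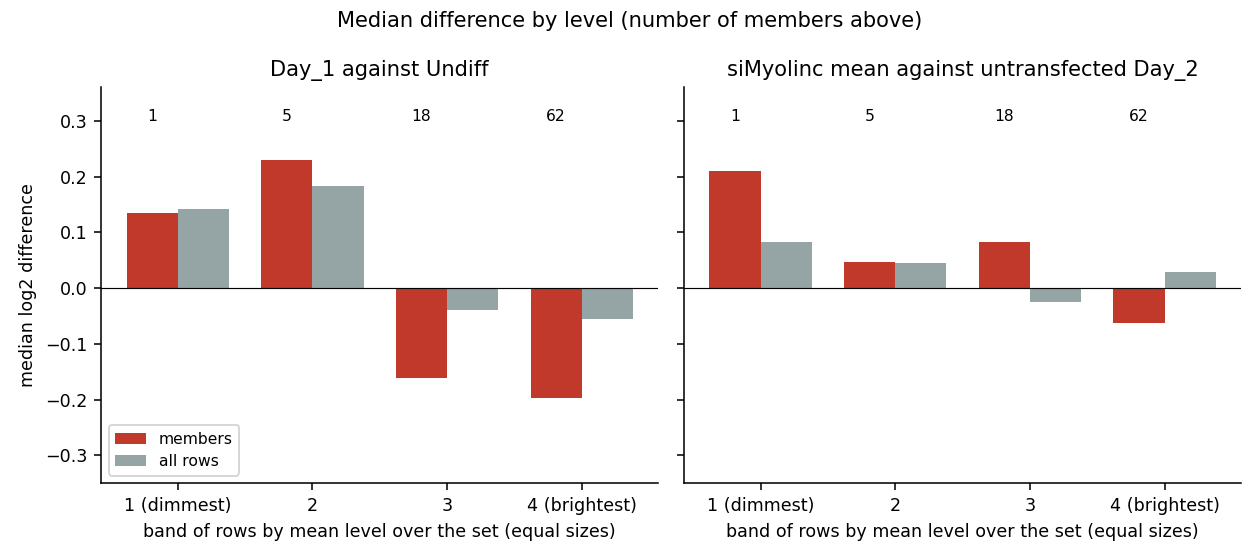
Median log2 difference of the members and of all rows in 4 bands of equal size by mean array signal, dimmest to brightest, with the number of members above the bars. At Day_1 against Undiff the dim bands lie above 0 and the bright ones below it, with the members at -0.20 and all rows at -0.05 in the brightest band.

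With siMyolinc against siScr few members were called: 4 of 86 were called for the mean of the 3 siRNAs, 2 higher and 2 lower, against a background of 9.09% of rows (3.64% higher and 5.45% lower). The members' median was -0.03 log2 and that of all rows -0.01. The 95% confidence interval of the difference lay within 0.5 log2 of 0 for 81 of 86 members, and its median half-width was 0.16. Taken one by one, siMyolinc.1 gave 6 called members (3 higher and 3 lower, background 11.3%, with 4.15% of rows higher and 7.13% lower) and siMyolinc.3 gave 1, higher (background 9.11%, with 3.67% higher and 5.43% lower). siMyolinc.2 gave 0 by limma (background 1.35%, with 0.718% higher and 0.629% lower), with 4 at an unadjusted p under 0.05. Among the 3 siRNAs limma's F test called 0 of 86 members (background 4.04%), with 8 at an unadjusted p under 0.05. With the 6 siMyolinc arrays taken as 1 group the count for the mean was 0, with 2.03% of rows called. With a variance trend on signal and a robust prior it was 10, with 12.3% of rows called. Without siScr replicate 2 the members' median was -0.08 log2, against -0.03 for all rows. The 7 markers of differentiated muscle, all lower in the same arrays, are given above, and their part in the members' values was not tested.

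Against untransfected Day_2 cells, 42 members were called with siMyolinc, 14 higher and 28 lower, against a background of 38.1% of rows, 19.3% higher and 18.9% lower. The median was -0.04 for the members and 0.05 for all rows. With the 75th percentile centring 18 were higher and 22 lower (25% of rows higher and 16.3% lower), and 13 members were higher and 21 lower under all 3 scalings. Without Day_2 replicate 1 the median was -0.04 for the members and 0.05 for all rows, and without Day_2 replicate 2 -0.03 and 0.03. In the same comparison 6 of the 7 markers of differentiated muscle were lower (median -2.64), and their part in the members' result was not tested.

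The core subunits of complex I carry the flavin, the iron-sulfur clusters and the path of the electrons. Of the 7 measured, all of them nuclear genes, 5 were lower at Day_1 than in Undiff and 0 higher (1 lower under either other scaling). Of all rows 21.1% were lower at Day_1, 14.8% with the 75th percentile centring and 18.6% with the quantile normalization. At Day_2 2 of the 7 were higher than in Undiff, with 14.8% of all rows higher. Ndufs1, the largest of these subunits, held 9.84 and 9.81 in Undiff, 9.28 and 9.22 at Day_1 and 9.84 and 9.84 at Day_2, all in log2 units. Both Day_1 arrays lay below the other 4, which lay close together. The difference was -0.57 ± 0.08 at Day_1 against Undiff (± SE, adjusted p = 0.000116) and 0.02 ± 0.08 at Day_2 against Undiff (adjusted p = 0.921).

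Ndufs3, which belongs to the module that passes electrons to ubiquinone, was above the Undiff level at Day_2. It had 10.72 and 10.72 in Undiff, 10.57 and 10.53 at Day_1 and 10.98 and 10.97 at Day_2. The 3 groups did not overlap, with Day_1 the lowest and Day_2 the highest. Its difference was -0.17 ± 0.06 at Day_1 against Undiff (adjusted p = 0.0462, not called under either other scaling) and 0.25 ± 0.06 at Day_2 against Undiff (adjusted p = 0.00811), a fold of 1.19. The siMyolinc arrays did not reach the Day_2 level: Ndufs3 ran from 10.61 to 10.84 (median 10.72) in the 6 siMyolinc arrays, against 10.98 and 10.97 at Day_2, a difference of -0.25 ± 0.05 (adjusted p = 0.00226). Against siScr Ndufs3 was not called (-0.08 ± 0.06, adjusted p = 0.558).

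Ndufv1 and Ndufv2, the subunits that take electrons from NADH, were lower at Day_1 by small amounts (-0.20 ± 0.06 and -0.17 ± 0.06, neither called under either other scaling). Ndufv1 was the 1 core subunit called with siMyolinc against siScr. It had 10.52 and 10.57 with siMyolinc.1, 10.81 and 10.78 with siMyolinc.2 and 10.69 and 10.57 with siMyolinc.3, against 10.89 and 10.88 with siScr. All 6 siMyolinc arrays lay below both siScr arrays, with siMyolinc.2 nearest to them. The difference of the mean was -0.23 ± 0.06 (adjusted p = 0.0402), and the call was lost with the 75th percentile centring, and when any 1 of 7 of the 8 arrays was left out. Ndufs7 and Ndufs8, which carry iron-sulfur clusters, were called in none of these comparisons.

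The supernumerary subunits surround that core and include the acyl carrier Ndufab1. Of 28, 11 were lower at Day_1 than in Undiff and 0 higher (4 higher and 5 lower with the 75th percentile centring, 2 and 8 with the quantile normalization). At Day_2 6 were higher than in Undiff and 3 lower. Of all rows 21.1% were lower at Day_1, and at Day_2 14.8% were higher and 15.2% lower. The widest swing was in Ndufb7, a subunit on the side facing the intermembrane space, with 9.82 and 9.74 in Undiff, 9.09 and 9.17 at Day_1 and 9.85 and 9.85 at Day_2. The 2 Day_1 arrays lay below the other 4. The difference was -0.65 ± 0.06 at Day_1 against Undiff (adjusted p = 5.09e-06) and 0.72 ± 0.06 at Day_2 against Day_1 (adjusted p = 2.78e-06). The 6 siMyolinc arrays ran from 9.33 to 9.56 (median 9.42), above Day_1 and below Day_2, with a difference of -0.41 ± 0.05 against Day_2.

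Among the other supernumerary subunits, Ndufb8 was lower at Day_1 (-0.37 ± 0.06) and at Day_2 (-0.30 ± 0.06) than in Undiff. Ndufa9, which stabilises the junction of the matrix and membrane arms, was lower at Day_1 (-0.57 ± 0.11) and not called at Day_2 (-0.27 ± 0.11). Ndufa1 was higher at Day_2 than in Undiff (0.37 ± 0.10), as were Ndufv3 (0.27 ± 0.06), Ndufb2 (0.26 ± 0.07) and Ndufa6 (0.25 ± 0.06). Ndufs6, needed late in assembly, was lower at Day_2 (-0.27 ± 0.08), a call lost with the centring. Between the days, Ndufb3 (0.50 ± 0.17), Ndufb4 (0.41 ± 0.06) and Ndufa3 (0.38 ± 0.07) were higher at Day_2 than at Day_1, the first not called with the 75th percentile centring. Ndufb10 was lower at Day_1 than in Undiff (-0.33 ± 0.09), a call lost under either other scaling. With siMyolinc against Day_2, Ndufa6 (0.36 ± 0.05) and Ndufb11 (0.35 ± 0.06) were higher and Ndufb7 and Ndufb2 (-0.27 ± 0.06, lost with the quantile normalization) lower. Against siScr 0 of the 28 were called for the mean of the siRNAs by limma, with 6 at an unadjusted p under 0.05. With siMyolinc.1 alone Ndufa1 was higher (0.38 ± 0.10, adjusted p = 0.0454, lost with only the arrays compared and when any 1 of 5 of the 8 arrays was left out) and Ndufb9 lower (-0.31 ± 0.08, adjusted p = 0.0385, lost under either other scaling and when any 1 of 6 arrays was left out).

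In Ndufs4, a subunit at the electron-input arm, 2 arrays of the scramble set stood apart. It had 10.57 and 10.57 with siMyolinc.1, 10.54 and 10.42 with siMyolinc.2 and 12.01 and 10.65 with siMyolinc.3, against 10.68 and 11.75 with siScr. The first siMyolinc.3 array and the second siScr array were more than 1 log2 above the other 6. The SE was accordingly large, and the difference was not called (-0.42 ± 0.34, adjusted p = 0.541). Ndufa9 was also highest in those 2 arrays, at 10.13 and 10.15, against 9.53 to 9.83 in the other 6.

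Ndufb6 is measured by a different transcript cluster in each gene table. The cluster of the time-course table was lower at Day_1 than in Undiff (-0.33 ± 0.06), while the cluster of the scramble table, placed in the same time-course fit, was higher (0.20). The 2 clusters went opposite ways at Day_2 as well (-0.22 and 0.18), so no direction is drawn for this gene, which the counts above hold as lower. Which of them measures the gene was not tested.

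Assembly factors build complex I without remaining in it. Of 5, limma called 0 at Day_1 against Undiff, with 1 at an unadjusted p under 0.05, against 48.1% of all rows called. Ndufaf3, an early assembly factor, was higher at Day_2 than in Undiff (0.32 ± 0.09), while Ndufaf4, its partner, and Ndufaf2 were lower (-0.38 ± 0.08 and -0.31 ± 0.08). With siMyolinc against Day_2, which shares the Day_2 arrays with that comparison, Ndufaf3 was lower (-0.43 ± 0.07) and Ndufaf4 (0.21 ± 0.06) and Ndufaf2 (0.25 ± 0.06) were higher. Ndufaf1 was lower with siMyolinc than at Day_2 (-0.45 ± 0.06, adjusted p = 6.38e-05) and was not called in the time course. Against siScr, Ndufaf3 ran from 7.88 to 8.11 (median 8.02) over the 6 siMyolinc arrays, against 8.26 and 8.39 with siScr. No siMyolinc array reached the siScr arrays, and the difference was -0.32 ± 0.08 (adjusted p = 0.0421), not called under either other scaling or without any 1 of 6 of the 8 arrays.

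Complex II, succinate dehydrogenase, is also an enzyme of the tricarboxylic acid cycle, and all its subunits are encoded in the nucleus. All 4 were lower at Day_1 than in Undiff (2 with the 75th percentile centring and 3 with the quantile normalization), Sdha and Sdhd under all 3 scalings. Of all rows 21.1% were lower in that comparison. The flavoprotein Sdha, which holds the active site for succinate, had 11.09 and 11.10 in Undiff, 10.67 and 10.57 at Day_1 and 11.10 and 11.10 at Day_2. Undiff and Day_2 lay close together, and both Day_1 arrays were lower. The difference was -0.47 ± 0.06 at Day_1 against Undiff (adjusted p = 7.14e-05), 0.01 ± 0.06 at Day_2 against Undiff (adjusted p = 0.964) and 0.48 ± 0.06 at Day_2 against Day_1 (adjusted p = 7.45e-05). Sdhb, the iron-sulfur subunit, was lower at Day_1 (-0.31 ± 0.09, lost under either other scaling), as were Sdhc and Sdhd, the membrane anchors (-0.29 ± 0.07, lost with the 75th percentile centring, and -0.46 ± 0.07). Sdhd was also lower at Day_2 (-0.27 ± 0.07).

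With siMyolinc, Sdha ran from 10.40 to 10.69 (median 10.50) over 6 arrays, against 11.10 and 11.10 at Day_2. Every siMyolinc array was lower, and the difference was -0.56 ± 0.05 (adjusted p = 2.82e-06). Against siScr Sdha was called with siMyolinc.1 (-0.26 ± 0.07, adjusted p = 0.0454, lost under either other scaling) but not for the mean (-0.16 ± 0.06, adjusted p = 0.125). Sdhb, Sdhc and Sdhd were not called against siScr. Sdhd had 10.00 and 9.91 with siMyolinc.1, 9.91 and 9.90 with siMyolinc.2 and 9.77 and 9.97 with siMyolinc.3, against 9.88 and 9.40 with siScr. The groups overlapped, and the siScr arrays lay far apart.

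**Figure D4:**
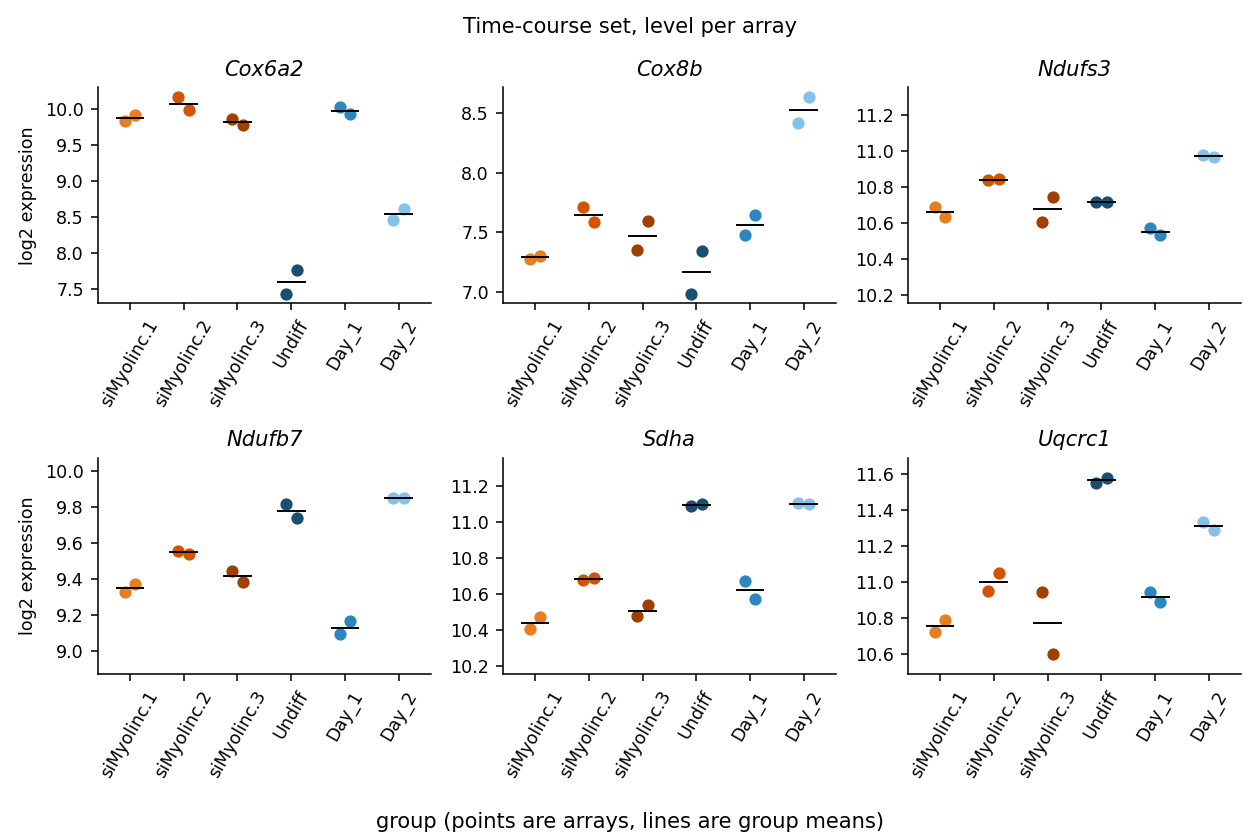
Log2 level of 6 members in each array of the time-course set (points) with group means (lines). Ndufb7, Sdha and Uqcrc1 are lower in both Day_1 arrays than in Undiff, Cox6a2 is highest at Day_1 among untransfected cells and Cox8b at Day_2.

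Complex III passes electrons from ubiquinol to cytochrome c. Of 7 genes, 3 were lower at Day_1 than in Undiff and 1 was higher (2 and 1 with the 75th percentile centring, 3 and 1 with the quantile normalization). Of all rows 21.1% were lower and 27% higher. Uqcrc1, a core protein on the matrix side, had 11.55 and 11.58 in Undiff, 10.94 and 10.89 at Day_1 and 11.33 and 11.29 at Day_2. The groups did not overlap, with Undiff the highest and Day_1 the lowest, and the Day_1 difference was -0.65 ± 0.10 (adjusted p = 0.00022). Cyc1, the cytochrome c1 heme protein that hands electrons on, had 11.97 and 11.90 in Undiff, 11.40 and 11.27 at Day_1 and 11.57 and 11.53 at Day_2. It was lower on both days (-0.60 ± 0.07 and -0.38 ± 0.07, adjusted p = 1.91e-05 and 0.000788).

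The small subunits Uqcrq and Uqcrh followed other courses. Uqcrq was higher at Day_1, at 11.22 and 11.30 against 10.85 and 10.81 in Undiff, and at Day_2 it had 10.83 and 10.82, within the Undiff range. The Day_1 difference was 0.43 ± 0.07 (adjusted p = 0.000292) and was called under all 3 scalings. Uqcrh, the acidic hinge protein near the cytochrome c site, had 11.49 and 11.30 in Undiff, 11.17 and 11.06 at Day_1 and 11.72 and 11.69 at Day_2, with no overlap between the groups. It was lower at Day_1 (-0.28 ± 0.08, lost with the 75th percentile centring) and higher at Day_2 (0.31 ± 0.08) than in Undiff. Uqcr11, another small subunit, was called higher at Day_2 than at Day_1 (0.28 ± 0.10), a call lost under either other scaling and with the transcript cluster of the scramble table. Uqcrfs1, the Rieske iron-sulfur protein, and Uqcr10 were called in none of the time-course comparisons.

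Uqcrh was also called with siMyolinc against siScr. The siMyolinc arrays held 11.56 and 11.50 for siMyolinc.1, 11.29 and 11.37 for siMyolinc.2 and 11.63 and 11.49 for siMyolinc.3, against 11.23 and 11.05 in siScr. All 6 lay above both siScr arrays, with siMyolinc.2 nearest to them. The difference was 0.34 ± 0.07 for the mean (adjusted p = 0.0188, under all 3 scalings), 0.39 ± 0.09 for siMyolinc.1 and 0.42 ± 0.09 for siMyolinc.3, both called, and 0.20 ± 0.09 for siMyolinc.2, not called. Without siScr replicate 2 or siMyolinc.2 replicate 2 the difference for the mean was not called. The same held with the 6 siMyolinc arrays as 1 group and with all transcript clusters tested. Against Day_2 Uqcrh was not called (0.01 ± 0.06), while Uqcrc1 was lower (-0.47 ± 0.08) and Uqcrq higher (0.31 ± 0.05).

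Cytochrome c, encoded by Cycs, shuttles electrons between complexes III and IV. It had 12.73 and 12.80 in Undiff, 12.46 and 12.30 at Day_1 and 12.39 and 12.30 at Day_2, so the Undiff arrays were above all the others. The difference was -0.38 ± 0.10 at Day_1 against Undiff (adjusted p = 0.00928, lost with the 75th percentile centring) and -0.41 ± 0.10 at Day_2 against Undiff (adjusted p = 0.00766). The scramble table measures Cycs by another, dimmer transcript cluster. Placed in the time-course fit, it gave -0.08 at Day_1 (adjusted p = 0.667) and -0.13 at Day_2 (adjusted p = 0.626), so both calls were lost. In the scramble set it had 6.04 and 5.98 in siMyolinc.1, 5.74 and 6.26 in siMyolinc.2 and 6.46 and 6.25 in siMyolinc.3, against 5.70 and 5.93 in siScr, and it was not called (0.30 ± 0.13, adjusted p = 0.21). The bases upstream of Cycs are shown because they hold the motif GCATGCGC, a core of binding sites of the respiratory factor NRF1, which is in capitals. They are the 250 bases before the start in RefSeq's GRCm38.p6 annotation, 5′ to 3′ on the gene's strand, at chr6:50566570-50566819 (minus strand), with the motif 60 bases before the start.
Cycs: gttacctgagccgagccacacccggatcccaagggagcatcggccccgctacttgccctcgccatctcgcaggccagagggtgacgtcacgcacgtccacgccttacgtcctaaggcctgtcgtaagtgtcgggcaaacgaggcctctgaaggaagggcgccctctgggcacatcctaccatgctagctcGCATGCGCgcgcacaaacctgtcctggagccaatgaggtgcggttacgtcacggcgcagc
The motif, searched on both strands of the 250 bases before each start, was in 10 of 76 member promoters (13.2%) and in 2.26% of 32851 promoters; 71 members had an entry. It also stood before Atp5g2, Atp5k, Atp5l, Cox6a1, Ndufa11, Ndufa6, Ndufa8, Ndufaf4 and Sdhb. These 10 genes did not share a direction: at Day_2 against Undiff, Cycs and Ndufaf4 were lower and Ndufa6 and Atp5l higher. A match describes letters and not a site in use.

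Complex IV, cytochrome c oxidase, hands electrons to oxygen, and its 19 members include tissue isoforms. It was the group with the most members higher at Day_1: 7 were higher and 5 lower (8 and 2 with the 75th percentile centring, 4 and 3 with the quantile normalization). That is 36.8% of the 19 higher and 26.3% lower, against 27% and 21.1% of all rows. Of all rows 55.5% were higher with the centring and 21.2% with the quantile normalization. The largest difference of any member was in Cox6a2, the heart and muscle form of subunit 6A. It had 7.44 and 7.76 in Undiff, 10.03 and 9.93 at Day_1 and 8.47 and 8.62 at Day_2. The 3 groups did not overlap, and Day_1 was the highest. It was higher by 2.38 ± 0.11 at Day_1 (adjusted p = 1.57e-08), a fold of 5.2, and by 0.94 ± 0.11 at Day_2 (adjusted p = 3.85e-05), a fold of 1.92. From Day_1 to Day_2 the difference was -1.44 ± 0.11 (adjusted p = 1.13e-06).

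In the siMyolinc arrays Cox6a2 lay around its Day_1 level. It held 9.78 to 10.17 (median 9.89) over the 6 siMyolinc arrays at day 2, against 8.47 and 8.62 in untransfected Day_2 cells. No siMyolinc array overlapped Day_2, and the difference was 1.38 ± 0.09 (adjusted p = 1.67e-07). Against the transfected siScr cells, however, it was not called: it had 9.67 and 9.73 with siMyolinc.1, 9.97 and 9.83 with siMyolinc.2 and 9.73 and 9.55 with siMyolinc.3, against 9.95 and 9.95 with siScr, a difference of -0.20 ± 0.07 (95% interval, not adjusted over rows, -0.36 to -0.04, adjusted p = 0.125). In siMyolinc.2 1 array lay above the siScr arrays, and the other 5 siMyolinc arrays lay below them. The 2 comparisons share the siMyolinc hybridisations and differ in their controls. The ubiquitous form Cox6a1 was lower at Day_1 than in Undiff (-0.22 ± 0.08, lost under either other scaling) and lower with siMyolinc than at Day_2 (-0.60 ± 0.07, adjusted p = 2.78e-05), with -0.08 ± 0.06 against siScr (not called).

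Cox8b, the heart and muscle form of subunit 8, was higher on both days. It had 6.99 and 7.34 in Undiff, 7.48 and 7.64 at Day_1 and 8.42 and 8.64 at Day_2. Every later array was above the earlier group. The difference was 0.40 ± 0.12 at Day_1 (adjusted p = 0.022, lost with the quantile normalization) and 1.36 ± 0.12 at Day_2 (adjusted p = 7.86e-06), a fold of 2.57. The 6 siMyolinc arrays ran from 7.28 to 7.71 (median 7.47), below both Day_2 arrays, with a difference of -1.06 ± 0.10 (adjusted p = 6.1e-06). Against siScr the difference was -0.18 ± 0.09 (95% interval -0.38 to 0.02, adjusted p = 0.276), with siMyolinc.1 at 6.74 and 6.70, siMyolinc.2 at 7.12 and 6.99 and siMyolinc.3 at 6.81 and 7.03 and siScr at 7.22 and 6.95. Cox8a, the widely expressed form, was not called at Day_1 (-0.09 ± 0.06) or Day_2 (0.14 ± 0.06) against Undiff.

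The upstream bases of this isoform pair and of Cox6a1 are shown to compare a muscle form with widely expressed forms. They are 250 bases before the start in the same annotation, 5′ to 3′ on the gene's strand, at chr7:140900447-140900696 for Cox8b, chr19:7217617-7217866 for Cox8a and chr5:115348959-115349208 for Cox6a1, all on the minus strand. Capitals mark E-boxes, CANNTG, the core bound by the myogenic regulators, in Cox8b and Cox8a, and the NRF1 core in Cox6a1, where overlapping matches on both strands run together.
Cox8b: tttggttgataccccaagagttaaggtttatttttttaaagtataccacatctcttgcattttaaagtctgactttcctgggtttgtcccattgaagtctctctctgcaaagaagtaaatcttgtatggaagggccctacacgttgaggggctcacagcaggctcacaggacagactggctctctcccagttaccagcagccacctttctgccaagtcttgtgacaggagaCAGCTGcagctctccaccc
Cox8a: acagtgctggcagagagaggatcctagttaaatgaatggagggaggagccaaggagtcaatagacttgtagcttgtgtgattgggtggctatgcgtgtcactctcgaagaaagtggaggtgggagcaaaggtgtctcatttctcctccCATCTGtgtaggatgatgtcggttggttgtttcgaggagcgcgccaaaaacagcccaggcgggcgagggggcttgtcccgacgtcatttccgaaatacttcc
Cox6a1: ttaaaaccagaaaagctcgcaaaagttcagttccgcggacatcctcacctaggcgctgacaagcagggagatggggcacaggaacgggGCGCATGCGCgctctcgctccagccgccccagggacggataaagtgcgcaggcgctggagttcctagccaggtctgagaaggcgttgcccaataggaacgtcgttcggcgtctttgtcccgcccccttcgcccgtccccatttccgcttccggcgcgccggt
The E-box lies 19 bases before the start of Cox8b and 102 before that of Cox8a. E-boxes, searched on both strands, were in 64.5% of 76 member promoters, against 66.2% of all. CCAAT was in 44.7% of member promoters against 33.8% of all, AAGGTCA, a core of estrogen-related receptor sites, in 6.58% against 4.08%, AAGATGGC, a core of YY1 sites, in 1.32% against 1.56%, and TATAAA, on the gene's strand, in 2.63% against 7.59%. An E-box of the form CAATTG can overlap a CCAAT match. Cox6a2 had no entry.

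Of the other isoforms, Cox7a1, the muscle form of subunit 7A, was not called in the time course (0.05 ± 0.10 at Day_1 and 0.14 ± 0.10 at Day_2) and was lower with siMyolinc than at Day_2, with 6.68 to 7.08 (median 6.88) over 6 arrays against 7.47 and 7.47 at Day_2. That was a difference of -0.58 ± 0.08 (adjusted p = 0.000137), with no overlap. Against siScr 0 of the 19 complex IV members were called lower for the mean, and the lowest difference among them was -0.20 log2. The counterpart of Cox7a1, Cox7a2, was lower at Day_1 (-0.43 ± 0.07) and higher at Day_2 against Day_1 (0.51 ± 0.07). Cox5b, a nuclear-encoded subunit on the matrix side that binds zinc, was likewise lower at Day_1 (-0.43 ± 0.07) and higher at Day_2 than at Day_1 (0.42 ± 0.07). Cox5a, another nuclear-encoded subunit, was lower on both days (-0.22 ± 0.05, lost under either other scaling, and -0.24 ± 0.05).

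Forms that other tissues use, namely the lung form Cox4i2, the testis forms Cox6b2 and Cox8c, and Ndufa4l2, a hypoxia-induced relative of the complex IV subunit Ndufa4, were higher at Day_1 by 0.24, 0.23, 0.27 and 0.21 log2. At Day_2 they were not called against Undiff. Their signal was dim, with log2 levels of 6.83 to 8.06 in the untransfected arrays. Cox4i2, Cox6b2 and Ndufa4l2 were in the second band from the dimmest, where the median of all rows was 0.18 at Day_1, and Cox8c was in the third. Cox6b2 and Ndufa4l2 were not called with the quantile normalization. The widely expressed Cox4i1 (-0.05 ± 0.06), Cox6b1 (-0.17 ± 0.08) and Cox7b (-0.01 ± 0.07) were not called at Day_1, nor was the testis form Cox7b2 (0.13 ± 0.12), and Ndufa4 was lower (-0.28 ± 0.06, lost with the 75th percentile centring).

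Cox7a2l, a relative of subunit 7A that joins complexes III and IV into supercomplexes, was higher on both days. It was also higher for the mean of the siMyolinc siRNAs against either control. In the time-course table it had 9.10 and 9.02 in Undiff, 9.62 and 9.47 at Day_1 and 9.57 and 9.58 at Day_2, with Undiff below the other arrays. The differences were 0.48 ± 0.07 and 0.51 ± 0.07 against Undiff, and 0.42 ± 0.05 with siMyolinc against Day_2. The transcript cluster of the scramble table gave smaller values in the same arrays, 0.28, 0.27 and 0.27, all called. In the scramble table it had 8.84 and 8.78 with siMyolinc.1, 8.31 and 8.43 with siMyolinc.2 and 8.44 and 8.60 with siMyolinc.3, against 8.27 and 7.92 with siScr. All 6 siMyolinc arrays were above both siScr arrays. The difference was 0.47 ± 0.09 for the mean (adjusted p = 0.0144) and largest with siMyolinc.1 (0.71 ± 0.12, adjusted p = 0.00421). With siMyolinc.2 (0.27) and siMyolinc.3 (0.43) it was not called. The call for the mean was lost without siScr replicate 2, with the 6 siMyolinc arrays as 1 group and with all transcript clusters tested. The cluster of the time-course table gave 0.34 ± 0.07 in the same arrays.

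**Figure D5:**
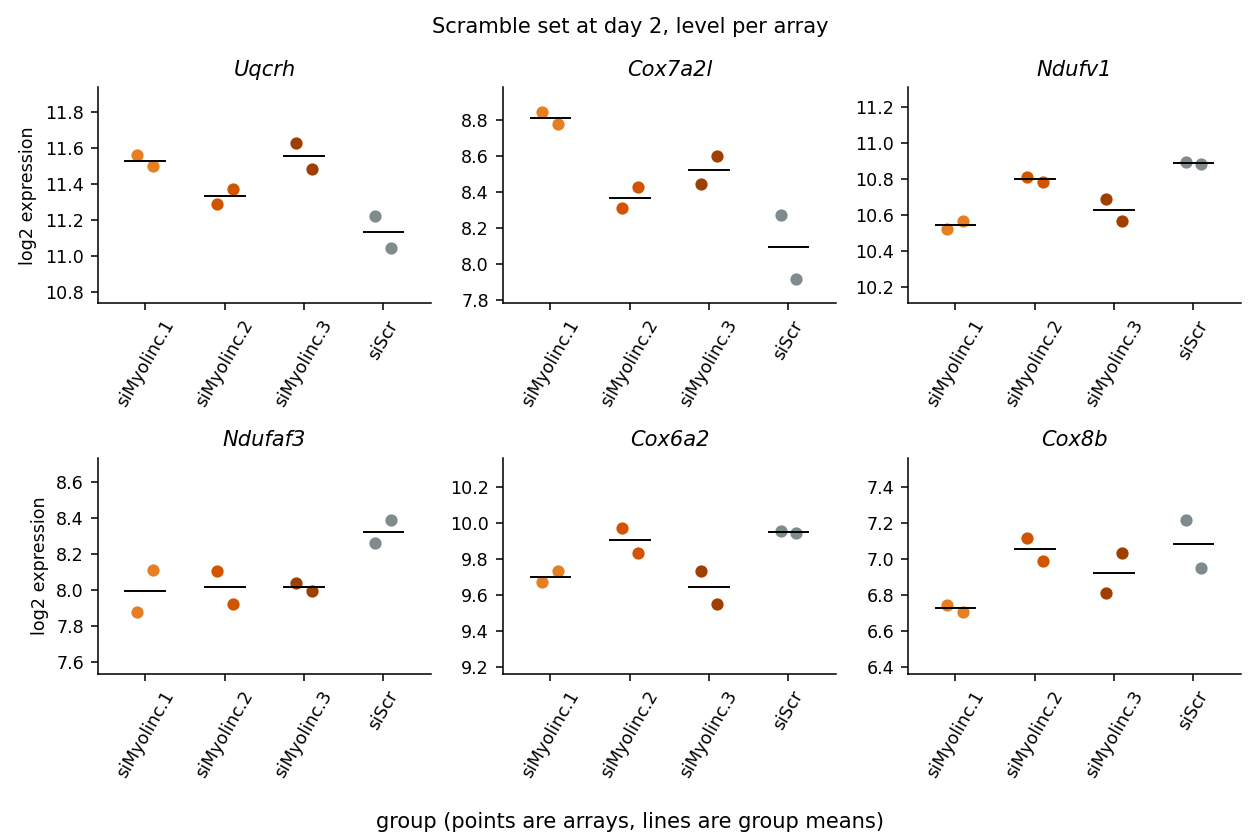
Log2 level of 6 members in each array of the scramble set at day 2 (points) with group means (lines). Uqcrh and Cox7a2l lie above both siScr arrays in all 6 siMyolinc arrays and Ndufv1 and Ndufaf3 below them, while Cox6a2 overlaps siScr in siMyolinc.2, and Cox8b in siMyolinc.2 and in 1 siMyolinc.3 array.

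The ATP synthase couples the return of protons, through its membrane ring, to the catalytic head that makes ATP. Of 14 members, 10 were lower at Day_1 than in Undiff and 1 higher (7 and 2 with the 75th percentile centring, 11 and 1 with the quantile normalization). Between the days 11 were higher and 1 lower at Day_2 than at Day_1 (7 and 1 with the centring). Of all rows 21.1% were lower and 27% higher at Day_1 against Undiff. Between the days 21.1% of rows were higher and 32.4% lower. In the catalytic head, Atp5a1, the alpha subunit, was lower on both days (-0.43 ± 0.05 and -0.17 ± 0.05, the second lost under either other scaling), and Atp5b, the catalytic beta subunit, was not called (-0.12 ± 0.06 and -0.03 ± 0.06). Atp5o, which ties the head to the stalk, had 11.19 and 11.17 in Undiff, 10.61 and 10.64 at Day_1 and 11.02 and 11.01 at Day_2. No groups overlapped, Day_1 being the lowest, and the difference was -0.56 ± 0.08 at Day_1 (adjusted p = 0.000117) and -0.17 ± 0.08 at Day_2 (adjusted p = 0.125).

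The 3 genes for the same ring subunit c did not move together. Atp5g3 had 12.29 and 12.40 in Undiff, 11.70 and 11.74 at Day_1 and 12.12 and 12.10 at Day_2, Atp5g1 had 12.97 and 12.97, 13.07 and 13.06 and 12.69 and 12.70 in the same order, and Atp5g2 had 12.81 and 12.72, 12.60 and 12.60 and 12.92 and 12.92. Atp5g3 was lowest at Day_1, Atp5g1 lowest at Day_2 and Atp5g2 highest at Day_2. At Day_1 Atp5g3 was lower (-0.62 ± 0.08, adjusted p = 4.93e-05), Atp5g2 was lower by less (-0.17 ± 0.06, lost with the 75th percentile centring) and Atp5g1 was not called (0.10 ± 0.05). At Day_2 against Day_1 Atp5g3 and Atp5g2 were higher (0.39 ± 0.08 and 0.32 ± 0.06) and Atp5g1 was lower (-0.37 ± 0.05, adjusted p = 0.000203). The protein made from all 3 genes is the same after its import signal is removed.

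Atp5l, a membrane subunit at the contact between synthase dimers, was lower at Day_1 and higher at Day_2 than in Undiff. It had 9.74 and 9.55 in Undiff, 9.37 and 9.14 at Day_1 and 9.94 and 9.93 at Day_2, with no overlap between the 3 groups. The differences were -0.39 ± 0.09 (adjusted p = 0.00575) and 0.29 ± 0.09 (adjusted p = 0.0349); the second was not called with the transcript cluster of the scramble table. Atp5e, the epsilon subunit, was higher at Day_2 (0.28 ± 0.08) and Atp5j2 and Atp5k, small membrane subunits, were lower at Day_1 (-0.39 ± 0.07 and -0.34 ± 0.06). Atp5s, counted here with the synthase by its symbol and named Dmac2l in RefSeq, was higher at Day_1 (0.25 ± 0.09). Atp5sl, named Dmac2 in RefSeq, is counted with the assembly factors of complex I and not with the synthase.

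Against Day_2, 18.9% of all rows were lower with siMyolinc and 19.3% higher. Of the 14 synthase genes 9 were lower and 3 higher (7 and 3 with the centring, 9 and 2 with the quantile normalization). The lower ones lay close together, from -0.29 for Atp5j2 and -0.28 for Atp5o to -0.14 for Atp5d, the delta subunit, whose call was lost with the 75th percentile centring. Atp5k (0.15 ± 0.05), Atp5s (0.22 ± 0.07) and Atp5g1 (0.13 ± 0.04, lost with the quantile normalization) were higher. Atp5b, which was not called in the time course, was lower here (-0.23 ± 0.05, adjusted p = 0.00182), with 13.20 to 13.38 (median 13.24) over the 6 siMyolinc arrays against 13.50 and 13.49 at Day_2 and no overlap. Against siScr 0 of the 14 were called by limma, and 0 had an unadjusted p under 0.05; the differences ran from -0.13 to 0.21 log2.

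The genes that act with the chain are read against 21.1% of all rows lower and 27% higher at Day_1 against Undiff, or 14.8% and 55.5% with the centring. Of 12 enzymes of the tricarboxylic acid cycle, 9 were lower and 1 higher at Day_1 than in Undiff (6 and 3 with the 75th percentile centring), led by Ogdh at -0.92 ± 0.07 and Idh3a at -0.78 ± 0.08. Of 19 further assembly factors, 9 were lower and 2 higher (8 and 4 with the centring), with Acad9 at -0.66 ± 0.07 and Bcs1l, which inserts the Rieske protein into complex III, at -0.57 ± 0.08. Of 11 genes of protein import and cristae, 6 were lower and 0 higher (4 and 3 with the centring). Of 8 carriers, porins and uncoupling proteins 5 were lower and 0 higher, a direction that turned with the centring (0 and 3). Of 9 regulators of mitochondrial biogenesis 4 were lower and 1 higher (2 and 3 with the centring). Ppargc1a, the coactivator PGC-1 alpha, was higher by 2.10 ± 0.18 at Day_1 and 1.50 ± 0.18 at Day_2, while Tfam, which maintains mitochondrial DNA, and Nrf1 were lower at Day_1 (-0.41 ± 0.08 and -0.35 ± 0.06). Of 16 genes of glycolysis and pyruvate use, 7 were lower and 1 higher at Day_1 (7 and 2 with the centring), among them Pdk4, the kinase that shuts off pyruvate dehydrogenase, at -2.16 ± 0.07.

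With siMyolinc against siScr 10 genes of these lists were called, against the same background of 9.09% of rows. Ppargc1a was higher (0.86 ± 0.07), the 1 called of 9 regulators. Of the 19 assembly factors 3 were lower, Bcs1l (-0.50 ± 0.07) and 2 that act in building complex IV, Cox18 (-0.31 ± 0.07) and Cox15 (-0.24 ± 0.06), the last not called under either other scaling. Of the 12 cycle enzymes 1 was lower, Idh3g (-0.21 ± 0.05, lost under either other scaling), and of the 8 carriers, porins and uncoupling proteins 1 was lower, the ATP and ADP carrier Slc25a4 (-0.23 ± 0.06, lost with the centring). Of 11 genes of protein import and cristae, Tomm20, a receptor of the outer membrane, was higher (0.26 ± 0.06). Of 16 genes of glycolysis and pyruvate use 1 was higher and 2 were lower.

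In the authors' deposited table, which gives unadjusted p-values, 13 members had p under 0.05 for siMyolinc against siScr (8 higher and 5 lower), with 14.5% of all rows. In the authors' deposited table the same count was 45 for Day 1 against undifferentiated cells (9 higher and 36 lower, 49% of rows), 34 for Day 2 against undifferentiated cells (19 and 15, 31.7%), and 53 for Day 2 against Day 1 (44 and 9, 53%). For siMyolinc against Day 2 the authors' deposited table gave 46 (17 and 29, 39.9%).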

How the data were processed

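C2C12 myoblasts were profiled on Affymetrix arrays in 20 samples, in a scramble set of 8 and a time-course set of 12, with 2 per group. The authors deposited log2 expression per gene in 2 gene tables of 20193 rows, made with RMA per the submitters' processing notes, with versions and annotation release not given in the sources used here. Both tables also hold the authors' own p-values per comparison, per the file headers, and limma is named in the submitters' processing notes. Day numbers of spreadsheet dates stood in 23 cells of 1 siMyolinc.3 array of the time-course set and were set missing, none of them a member.

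Groups came from the labels. The siMyolinc values of the 2 sets were taken as the same hybridisations normalized separately: arrays of the same label correlated at 0.933 to 0.949 in their deviations and others at 0.289 or less. The values were fitted as deposited with limma 3.58.1 in R 4.3.3, with 1 coefficient per group over all arrays of a set, empirical Bayes moderation and Benjamini-Hochberg adjustment over all rows. A gene was called at an adjusted p under 0.05. Differences are on the log2 scale, with SE, and the number of arrays limits their precision. The fit was tested on simulated data with known changes. Promoter sequences and coordinates are from RefSeq, GRCm38.p6.

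The members and gene lists were chosen with earlier results of these data known. Named genes are, per comparison and complex, up to 4 called members with the largest change, the isoform sets of complex IV and of Atp5g, Cycs, Cyc1 and the Sdh genes, and up to 3 called genes of each other list; a few others were named after their values were seen. Alternatives were the scaling, the dim rows, the variance prior, the replicate block, the rows tested, the transcript cluster and each array left out. Myolinc was not analysed here, and the values of 1 member are not reported here.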

Additional observations from a re-analysis of the deposited data

Results flagged for a closer look

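For the 3 members given here the differences from Undiff had opposite signs on the 2 days, and the difference between the days, Day_2 against Day_1, was itself called by limma. Ndufs3 was at -0.17 log2 at Day_1 and 0.25 at Day_2, a difference of 0.42 between the days (adjusted p = 0.000255). Its Day_1 call was lost under either other scaling, while its Day_2 call was not. Uqcrh was at -0.28 and 0.31, a difference of 0.59 (adjusted p = 0.000103), and its Day_1 call was lost with the 75th percentile centring. Atp5l was at -0.39 and 0.29, a difference of 0.68 (adjusted p = 0.000144), with both calls under all 3 scalings. The transcript cluster of the scramble table gave -0.31 and 0.23 in the same arrays, the second not called. Both days share the Undiff arrays. Outlying arrays were not tested, since each group has 2.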

How the results depend on the processing

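With siMyolinc against siScr 4 members were called for the mean of the siRNAs, with 9.09% of all rows. The count was 2 with the replicate number as a block (8.9% of rows) and 7 with the dimmest 30% of rows left out (16.6%). It was 10 with a variance trend and robust prior (12.3%), 0 with the 6 arrays as 1 group (2.03%) and 0 with all transcript clusters tested (3.8%). For siMyolinc.1 (6) it was 10 with dim rows left out (19.7% of rows) and 11 with the trend (14.5%). For siMyolinc.3 (1) it was 4 with the 75th percentile centring (8.61%) and 3 with the quantile normalization (9.52%). There it was also 5 with dim rows left out (17.2%) and 10 with the trend (12.8%). For differences among the siRNAs (0) it was 1 with dim rows left out (8.04%) and 2 with the trend (6.53%). siMyolinc.2 stayed at 0 in every alternative run. Leaving out 1 array at a time gave 0 to 6 for the mean, 1 to 7 for siMyolinc.1, 0 to 5 for siMyolinc.3, 0 to 0 for the differences among the siRNAs, 29 to 52 for Day_1 against Undiff, 14 to 33 for Day_2 against Undiff, 30 to 52 for Day_2 against Day_1 and 27 to 46 for siMyolinc against Day_2, with the lone array of a group assumed to vary like the others. The share of all rows called moved with the array left out as well. For Day_2 against Undiff the members' median was 0.02 without Day_2 replicate 2 (all rows -0.03) and 0.01 without Day_2 replicate 1 (all rows -0.04). Without Undiff replicate 2 it was -0.001 (all rows -0.006). For Day_2 against Day_1 without Day_2 replicate 2 it was 0.18 (all rows -0.11). Each call of a member in a comparison was read again in each alternative run. Of these readings 2 reversed, both of Ndufb6 with the other table's transcript cluster (0.20 at Day_1 and 0.18 at Day_2). Of the other readings, 3041 kept the call and 443 lost it. The members' median at Day_1 against Undiff was -0.02 with the centring and -0.10 with the quantile normalization, and that of Day_2 against Day_1 was 0.05 with the centring. Causes were not tested. Replicate numbers are in the labels, but same-numbered arrays did not deviate together (1 of 6 correlations over 0.1 in the scramble set and 1 of 15 in the time course), so the numbers were not taken as pairs; the block gave 47, 29, 51 and 41 calls in the 4 time-course comparisons, against 49, 29, 51 and 42. With 2 arrays a group, dim members carry the least signal over background.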
